A study of Mus musculus with 60 samples.

Results

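Kidneys of mice labelled as double knockouts of B4galnt1 and B4galnt2 were compared with kidneys labelled wild type. The comparison holds the 9 arrays labelled kidney in this line, 1 per animal, of 60 arrays in the series. The double knockout (DKO) group holds 5 animals labelled homozygous null for both genes, males N5893, N5894 and N5895 and females N5891 and N5892. The wild-type (WT) group holds 4 animals labelled homozygous for both intact alleles, males N3738, N3740 and N9700 and the single female N9686. All are described as healthy. The labels used here give no age, litter or strain background for these mice and do not say how the alleles were made. Without a shared litter in the labels, genotype and family cannot be told apart. Per the design text, expression results served to choose tissues of each knockout for glycan analysis, and kidney was among the tissues selected for this line. The series also profiled testes, mammary gland and thymus of this line, tissues of a separate St6galnac2 knockout line, and C57 mice.

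Messenger RNA was measured on Affymetrix arrays designed for glycan-related genes, as robust multi-array average (RMA) values on the log2 scale, so that a difference of 1 is a 2-fold change. Each array carries 1246 probe sets, and 963 of them were matched to 909 named genes. Array medians in kidney lay between 5.344 and 5.458, and the number of animals limits the precision. Each kidney array correlated at 0.949 to 0.973 with kidney, across genes and after removal of the mean over tissues, and at no more than 0.0279 with the next most similar tissue. Umod, which encodes the uromodulin of the thick ascending limb, lay between 12.09 and 12.49 in all 9 kidneys and at no more than 7.292 in any other tissue. Bmp7, a growth factor of the nephron, lay between 8.025 and 8.643 in kidney and at no more than 7.111 elsewhere. Sult1d1, a sulfotransferase, lay between 8.474 and 9.424 in kidney and reached 9.478 in C57 small intestine, and Havcr1, a marker of injured tubule, reached 5.408 outside kidney against a lowest kidney value of 4.259. Only 4 of 19 listed kidney epithelial markers and none of 6 podocyte markers were measured. The titles of the kidney arrays of N3738 and N3740 carry an added digit whose meaning the labels do not give. These 2 WT arrays deviated together from the kidney mean (correlation 0.7 across probe sets), as the 2 DKO females did (0.7), so the value without them is given for differences of at least 0.2 that moved by over 1.5 times.

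B4galnt1 encodes the enzyme that adds N-acetylgalactosamine (GalNAc) to the simple gangliosides GM3 and GD3, the branch point that opens the complex gangliosides, which are sialic acid-bearing glycolipids of the outer cell membrane. B4galnt2 encodes a related transferase that adds GalNAc to a sialylated galactose and makes the Sda (Cad) blood group antigen, best known in the gut. The kidney makes both gangliosides and neutral globo-series glycolipids, and in mice it is also known for marked differences in expression between the sexes.

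The targeted genes did not separate the genotypes on these arrays. B4galnt1, on chromosome 10, had 5.70, 5.35 and 5.30 in the male DKO kidneys N5893, N5894 and N5895 and 5.77 and 6.04 in the female DKO kidneys N5891 and N5892, against 5.59, 5.55 and 5.47 in male WT kidneys and 5.93 in the WT female. Values of the 2 groups overlapped completely in both sexes. The DKO minus WT difference, with sex in the model, was -0.07 ± 0.10 (SE, limma adjusted p = 0.741, 95% interval -0.283 to 0.148). B4galnt2, on chromosome 11, had 3.82, 3.75, 4.15, 3.91 and 3.64 in DKO kidneys in the same order, against 3.58, 4.05, 3.79 and 3.89 in WT kidneys. These values lay below 4.172, the 25th percentile of all kidney values, in every animal of both groups, so a loss of this transcript had little room to show. Its difference was 0.03 ± 0.12 (SE, limma adjusted p = 0.899, 95% interval -0.234 to 0.301). An exact 2-sided permutation test over all 126 splits of the animals gave p = 0.976 for B4galnt1 and p = 0.825 for B4galnt2. This permutation test has no sex term, and without one the B4galnt1 difference was -0.0024. For scale, B4galnt2 averaged 11.77 ± 0.58 in C57 small intestine (SD, n = 3). B4galnt1 averaged 9.63 ± 0.89 in the same C57 arrays, against 5.64 ± 0.21 in WT kidneys (SD, n = 4). The files used here do not give the probes' place in the transcripts, so it was not tested whether they lie in deleted sequence, and the arrays do not check the genotype labels.

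St6galnac2 was the gene that passed the test between DKO and WT kidneys. It encodes a sialyltransferase that adds sialic acid in alpha-2,6 linkage to the GalNAc of mucin-type O-glycans, and it is the gene targeted in the separate knockout line of the series. It had 8.99, 9.08 and 9.03 in the male DKO kidneys and 8.84 and 8.99 in the female DKO kidneys, against 9.84, 9.71 and 9.53 in the male WT kidneys and 9.52 in the WT female. Every DKO animal lay below every WT animal, and the spread within each group was small beside the gap. St6galnac2 averaged 8.99 ± 0.09 in DKO kidneys (SD, n = 5) and 9.65 ± 0.15 in WT kidneys (SD, n = 4). The difference was -0.65 ± 0.08 (SE, limma adjusted p = 0.00738, 95% interval -0.822 to -0.471), which places the DKO level at 63.9% of the WT level. In bulk tissue, fewer cells of a type and less RNA per cell cannot be told apart. This was 1 of 1246 probe sets called at an adjusted p under 0.05 (percent called 0.0803).

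The St6galnac2 difference kept its sign in all 19 alternative settings and its call in 15. In limma it was not called among males alone (-0.66, adjusted p = 0.117) or without the lone WT female N9686 (-0.66, adjusted p = 0.0580). These 2 settings give the same difference, since without N9686 only the males compare the genotypes. It was also not called without WT animals N3738 and N3740 (-0.55, adjusted p = 0.108). The same held in a limma fit of all tissues of the line together (-0.65 ± 0.58, SE, adjusted p = 0.990), which pools the spread over tissues.

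**Figure D1:**
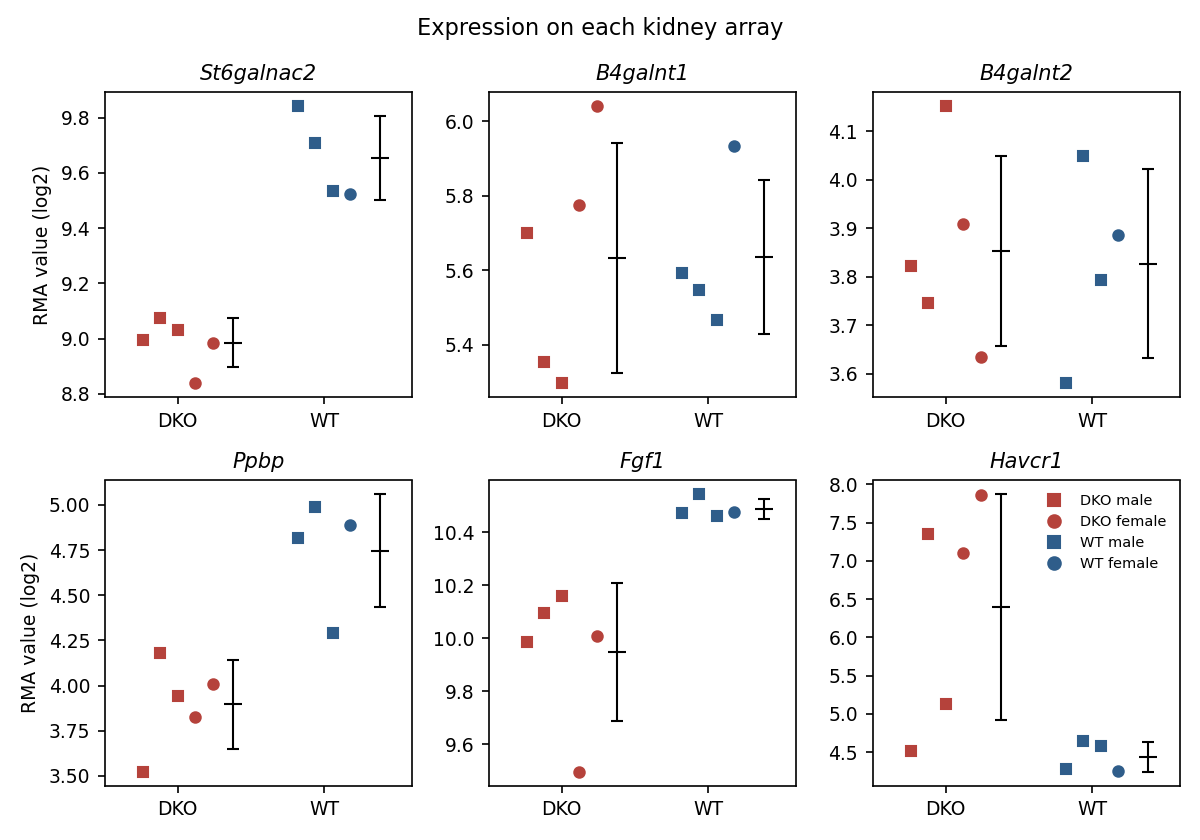
RMA value (log2) on each kidney array for 6 genes, DKO left and WT right, squares for males and circles for females, with the mean and SD of each group as a bar beside the points. St6galnac2, Ppbp and Fgf1 do not overlap between DKO and WT, B4galnt1 and B4galnt2 overlap, and Havcr1 is high in 3 of 5 DKO kidneys; the axes differ between panels and do not start at 0.

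In the other tissues of the same animals St6galnac2 did not follow 1 pattern. In testes it had 11.50, 12.14 and 12.39 in DKO males, against 12.74, 12.73 and 12.31 in WT males, a difference of -0.57 ± 0.70 (SE). In mammary gland the 5 DKO values ran between 7.14 and 10.09, against 7.52 and 7.37 in WT, a difference of 1.44 ± 0.71. In thymus the 5 DKO values ran between 6.80 and 7.43, against 8.83 in N3738, 10.25 in N3740 and 6.07 in N9700. The difference was -1.30 ± 0.70, but it rests on N3738 and N3740, whose thymus arrays stood apart in an earlier look at these data. N9700 lay below every DKO value. The spread between animals was wider in DKO mammary gland and WT thymus than in kidney, while the 2 WT mammary glands lay close together. None of these 3 differences passed the limma test of the whole line (adjusted p = 0.935, 0.338 and 0.159). That fit pools the spread over all tissues of the line, so these SEs are not those of each tissue alone. The SE of the kidney difference was 0.58 there, against 0.08 in the fit of kidney arrays alone. In the St6galnac2 line the same probe set had 5.79 to 6.27 in knockout thyroid, against 5.49 to 5.94 in WT thyroid, and 6.17 to 6.66 in knockout lymph node, against 6.18 to 6.83 in WT lymph node. In intestine of that line, where the level was higher, it had 8.65 and 8.74 in knockout. The WT intestines had 8.74 and 8.77, and 5.67 in WT animal 9099. Knockout and WT values overlapped in each of these tissues, so these arrays do not show that the probe set reads the deleted part of the transcript.

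**Figure D2:**
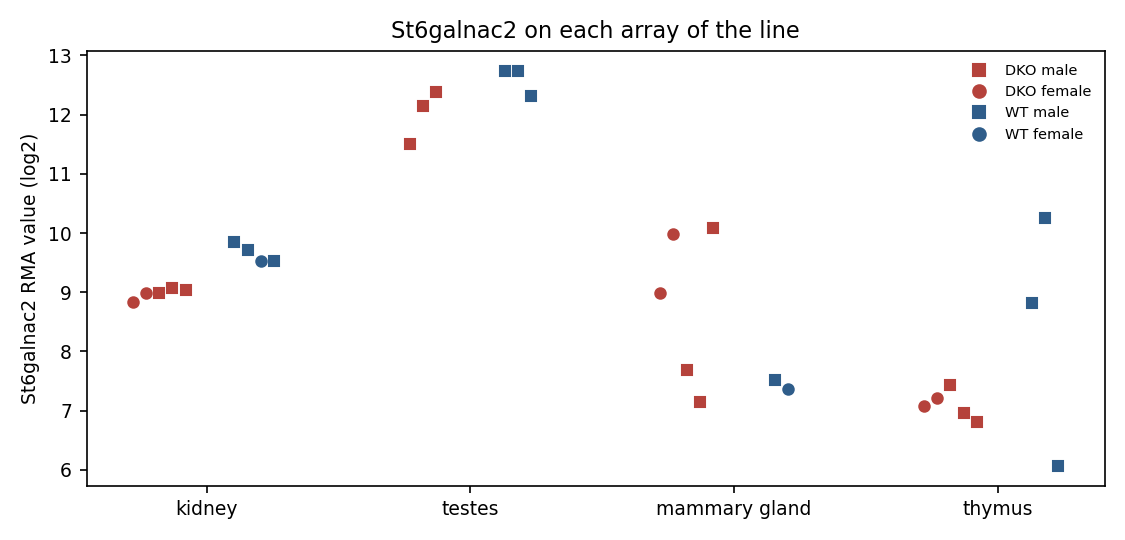
RMA value (log2) of St6galnac2 on each array of the line by tissue, DKO left of WT, squares for males and circles for females. Kidney runs between 8.84 and 9.08 in DKO against 9.52 to 9.84 in WT, while DKO mammary gland runs between 7.14 and 10.09 and WT thymus between 6.07 and 10.25.

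The array as a whole leaned slightly towards lower values in DKO kidneys. The median DKO minus WT difference over all 1246 probe sets was -0.067. At an unadjusted p under 0.05 stood 164 probe sets (13.2%), 40 of them higher in DKO (3.21%) and 124 lower (9.95%). The groups did not overlap in 34 probe sets (2.73%), with all DKO animals below all WT animals in 28 (2.25%) and above them in 6 (0.482%). The second smallest adjusted p was 0.130. Other than St6galnac2, none of the 24 genes with the smallest p passed the adjusted test.

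Ppbp, which encodes a platelet chemokine precursor, had 3.52, 4.18 and 3.94 in male DKO kidneys and 3.83 and 4.01 in female DKO kidneys, against 4.82, 4.99 and 4.29 in male WT kidneys and 4.89 in the WT female. Every DKO value lay below every WT value, at levels close to the 25th percentile. The difference was -0.87 ± 0.16 (SE, limma adjusted p = 0.130). Without WT animal N9700, the lowest of the WT values, it was -1.005 with an adjusted p of 0.0125. Fgf1, a growth factor that binds heparan sulfate, had 9.99, 10.09, 10.16, 9.50 and 10.01 in DKO kidneys, against 10.47, 10.54, 10.46 and 10.48 in WT kidneys. The groups did not overlap, and the WT values lay within a narrow band. Its difference was -0.51 ± 0.11 (SE, limma adjusted p = 0.183). Eif5, a translation initiation factor, differed by -0.37 ± 0.08, with DKO values of 10.19 to 10.60 against WT values of 10.65 to 10.70. Galnt18, of the polypeptide GalNAc transferase family, differed by -0.37 ± 0.08, with DKO values of 7.75 to 7.94 against WT values of 8.03 to 8.30. Both had adjusted p = 0.183 in limma and no overlap between groups.

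Havcr1 (Kim-1), a membrane protein known as a marker of injured proximal tubule, had the widest spread among DKO kidneys of the genes named for a small p. It had 4.52, 7.35 and 5.13 in male DKO kidneys and 7.10 and 7.87 in female DKO kidneys, against 4.28, 4.64 and 4.57 in male WT kidneys and 4.26 in the WT female. High values appeared in N5894, N5891 and N5892, so in both sexes, whereas N5893 lay within the WT range. The difference was 1.80 ± 0.54 (SE, limma adjusted p = 0.287, 95% interval 0.615 to 2.98), which did not pass. Without the WT female N9686, which leaves only the males to compare the genotypes, the Havcr1 difference was 1.17. In the line's other tissues Havcr1 stayed between 3.97 and 4.67. The probe set carries a suffix for probes shared with other transcripts. Other injury markers measured were Vcam1, an adhesion molecule, at 0.05 ± 0.11, and Cd44, a hyaluronan receptor, at 0.09 ± 0.10.

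The remaining genes named for a small p, given here by what they are known to do and not as tested groups, included Papss1, which makes the sulfate donor PAPS (-0.35 ± 0.09), Slc35d2, a nucleotide sugar transporter (-0.42 ± 0.11), and Ugp2, which makes UDP-glucose (-0.39 ± 0.11). Papss1 had DKO values of 9.72 to 9.89 against WT values of 9.90 to 10.39, and Ugp2 had 8.09 to 8.34 against 8.45 to 8.87, both without overlap. Rpn2 (-0.33 ± 0.10) and Ddost (-0.27 ± 0.08), both subunits of the oligosaccharyltransferase that starts N-glycosylation, also had all DKO values below all WT values. The lysosomal genes were Aga, an aspartylglucosaminidase (-0.41 ± 0.12), and Igf2r, which carries mannose 6-phosphate-tagged enzymes to lysosomes (-0.28 ± 0.08). Higher in DKO were Cd93, an endothelial C-type lectin-like receptor (0.39 ± 0.10), Tmsb10, an actin-binding peptide (0.44 ± 0.12), Chst15, a sulfotransferase of chondroitin sulfate (0.24 ± 0.07), and Igfbp3, an insulin-like growth factor binding protein (0.39 ± 0.11). For Cd93 all DKO values, 6.77 to 7.30, lay above all WT values, 6.48 to 6.72. Met, the hepatocyte growth factor receptor, differed by -0.39 ± 0.10, Lgalsl, a galectin-like protein, by -0.33 ± 0.08, and Il18, a cytokine, by -0.26 ± 0.07. Esm1, an endothelial proteoglycan, differed by -0.78 ± 0.19 on the brighter of its probe sets and by -0.13 ± 0.36 on the other (adjusted p = 0.866). Chodl (-0.28 ± 0.07), Rpl39l (-0.29 ± 0.08) and Frem1 (0.37 ± 0.10) had mean values below the 25th percentile. The other adjusted p of these genes lay between 0.269 and 0.287 in limma. Without N3738 and N3740 the difference was 0.27 for Tmsb10, -0.25 for Slc35d2, -0.20 for Ugp2, -0.22 for Aga, -0.17 for Rpn2 and 0.25 for Igfbp3.

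Of the genes of ganglioside synthesis, all 16 listed were measured and none was called, with 2 at an unadjusted p under 0.05, both lower in DKO. Their median difference was -0.0622, against -0.0779 over all 909 genes, and 3 were above 0 and 13 below it. Of all 909 genes, 222 were above 0 and 687 below, so the list leaned to the same side as the array. Single 95% intervals ran between -0.695 and 0.357. The first step, Ugcg, which makes glucosylceramide, differed by -0.29 ± 0.13. Lactosylceramide synthases were B4galt5 (-0.18 ± 0.18) and B4galt6 (0.07 ± 0.13). St3gal5, which makes GM3, the acceptor of B4galnt1, differed by 0.12 ± 0.09, with 6.65 to 6.91 in DKO kidneys against 6.48 to 6.80 in WT kidneys. St8sia1, which makes GD3, differed by -0.30 ± 0.18, with 7.90 to 8.74 in DKO kidneys against 8.32 to 9.14 in WT kidneys. Both overlapped between genotypes, and neither passed (limma adjusted p = 0.537 and 0.469). Without N3738 and N3740 the St8sia1 difference was -0.19.

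Downstream of the step of B4galnt1, B3galt4, which adds galactose to GM2, differed by -0.12 ± 0.10. The sialyltransferases of complex gangliosides differed by -0.03 ± 0.08 for St3gal1, -0.001 ± 0.09 for St3gal2, -0.28 ± 0.10 for St3gal3, 0.03 ± 0.09 for St8sia5 and -0.02 ± 0.09 for St8sia3. St3gal3 had 7.78 to 8.06 in DKO kidneys, against 8.38, 8.47 and 8.19 in male WT kidneys and 7.88 in the WT female, so it separated the males and not the females. Its limma adjusted p was 0.311, and without N3738 and N3740 its difference was -0.13. The alpha-2,6-sialyltransferases St6galnac3, St6galnac4, St6galnac5 and St6galnac6 differed by -0.06 ± 0.08, -0.10 ± 0.12, -0.12 ± 0.09 and -0.02 ± 0.13. St8sia3 and St6galnac3 had mean values below the 25th percentile, so a fall had little room to show. In the list of 7 measured alpha-2,6-sialyltransferases 1 was called, St6galnac2 itself, and the other 6 did not reach an unadjusted p under 0.05. All 7 were below 0, as were 687 of all 909 genes, and the median was -0.0986.

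Other transferases that add GalNAc in beta linkage did not pass either. Of 12 listed, 11 were measured, none was called and none stood at an unadjusted p under 0.05, with a median of -0.0216 (0.0179 with each array centred on its median) and 95% intervals between -0.905 and 0.634. The nearest relatives of the targeted genes, B4galnt3 and B4galnt4, differed by 0.10 ± 0.09 and 0.004 ± 0.09. B3galnt1, the globoside synthase, differed by 0.24 ± 0.18 and B3galnt2, which acts on dystroglycan, by -0.15 ± 0.09. Chondroitin chain genes gave -0.44 ± 0.21 for Csgalnact1, -0.29 ± 0.14 for Chsy1, -0.02 ± 0.08 for Csgalnact2, -0.02 ± 0.07 for Chpf and 0.01 ± 0.07 for Chsy3. The mean value of Chsy3 lay below the 25th percentile. Without N3738 and N3740, B3galnt1 stood at 0.42 and Chsy1 at -0.02.

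**Figure D3:**
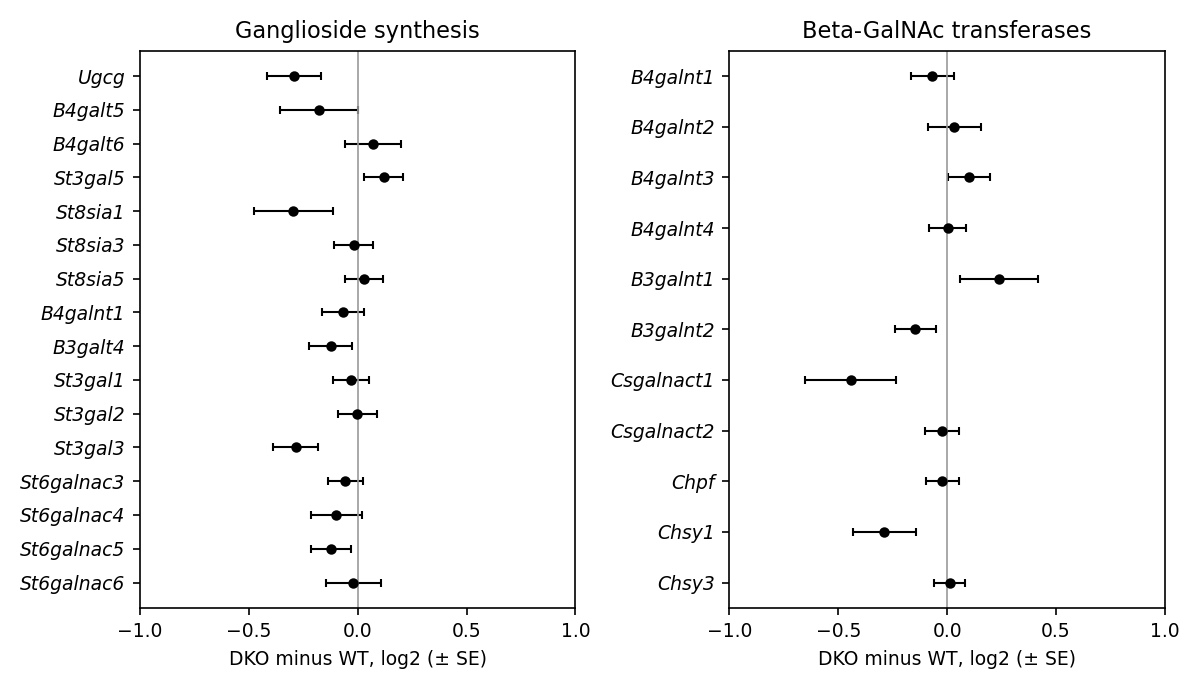
DKO minus WT difference in kidney (log2, points) with its standard error (bars) for the 16 genes of ganglioside synthesis and the 11 measured beta-GalNAc transferases. Differences lie between -0.30 and 0.12 in the first list and between -0.44 and 0.24 in the second, and none passed the adjusted test.

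Of 35 lists with at least 1 measured gene, 34 held no called gene, and the list of alpha-2,6-sialyltransferases held 1. At an unadjusted p under 0.05, over all 909 genes, 105 were lower and 26 higher in DKO kidneys. Of nucleotide sugar transporters and synthesis genes, 8 of 27 were lower at that p and none higher, with a median of -0.14, and of lysosomal glycan degradation genes 6 of 22 were lower and none higher, with a median of -0.145. In sialic acid synthesis and activation all 7 measured genes were below 0, as were 687 of all 909 genes, and 3 had an unadjusted p under 0.05. Among them Cmah, the hydroxylase that makes N-glycolylneuraminic acid, differed by -0.33 ± 0.13. Psap, the precursor of the saposins that help degrade glycolipids, differed by -0.23 ± 0.07. Ugt8a, the galactosyltransferase of galactosylceramide, differed by -0.49 ± 0.15. St8sia6, an alpha-2,8-sialyltransferase, differed by -0.58 ± 0.24, C1galt1c1, the chaperone of core 1 O-glycan synthesis, by -0.23 ± 0.08, and Fpgt, of the GDP-fucose salvage route, by -0.26 ± 0.11. Glce, of heparan sulfate synthesis, differed by -0.19 ± 0.06, and Mgat5b, with a mean value below the 25th percentile, by -0.18 ± 0.08. Gpc6, a glypican, differed by 0.21 ± 0.07, Lfng, a modifier of Notch, by 0.43 ± 0.13, and Tgfbr1, a TGF-beta receptor, by -0.36 ± 0.11. None of these passed, with limma adjusted p between 0.287 and 0.343. Without N3738 and N3740 the difference was -0.27 for St8sia6, -0.11 for Cmah, -0.15 for Fpgt and 0.17 for Lfng.

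Summed levels of markers of other cell types overlapped between the genotypes in each list measured. The summed linear level of the 5 endothelial markers measured ran between 1541 and 2150 in DKO kidneys, against 1284 to 2066 in WT kidneys. Emcn, with the highest values of the 5, weighs most in this sum. The median difference was 0.173, with 3 markers above 0 and 2 below. Mcam, an endothelial adhesion molecule, stood at 0.43 ± 0.15 (0.13 without N3738 and N3740), Pecam1 at 0.18 ± 0.10 and Emcn at 0.17 ± 0.11. Selp stood at -0.14 ± 0.08 and Sele at -0.06 ± 0.09. For 5 connective tissue markers the summed level ran between 1129 and 2171 in DKO kidneys, against 1161 to 1697 in WT kidneys. This sum has no sex term, and 4 of the 5 markers were called higher in females. The median difference was 0.192, with 4 markers above 0 and 1 below, and Dcn (decorin) stood at 0.31 ± 0.12. Dcn, with the highest values of the 5, weighs most in the sum. For 7 macrophage and monocyte markers the sum ran between 528.8 and 636.1 in DKO kidneys, against 569 to 619.5 in WT kidneys. For 6 lymphocyte markers it ran between 149.2 and 197, against 166.6 to 186.2. Clec4a2 among the macrophage markers, Sele among the endothelial markers and Fcer2a among the lymphocyte markers had mean values below the 25th percentile, and no marker of red blood cells was measured. Of the kidney epithelial markers, Umod differed by -0.05 ± 0.08, Bmp7 by 0.04 ± 0.11 and Sult1d1 by -0.35 ± 0.12 (limma adjusted p = 0.311). The part of cell composition in the St6galnac2 difference was not tested.

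B4galnt2 and St6galnac2 lie on the same chromosome, 11, and the measured genes were therefore set in order along it with the GRCm38.p6 gene table, a description chosen after the values were seen. St6galnac2 stood 20 measured genes from B4galnt2. Of 84 measured genes of chromosome 11, 23 (27.4%) had an unadjusted p under 0.05 between DKO and WT kidneys, 18 lower and 5 higher, against 131 of 909 genes (14.4%) on all chromosomes. This was the highest share among the 19 chromosomes with at least 20 measured genes. Chromosome 10, which holds B4galnt1, had 7 of 39 (17.9%) and ranked 6. The nearest gene on one side of B4galnt2, Slc35b1, of the Slc35 transporter family, differed by -0.22 ± 0.07. Psmb3, a proteasome subunit 2 measured genes to the other side, differed by -0.33 ± 0.10. Further out on that side were Nmt1, an N-myristoyltransferase (-0.25 ± 0.07), Icam2, an endothelial adhesion molecule (0.29 ± 0.09), and Cog1, of the Golgi COG complex (-0.25 ± 0.08). Havcr1 and Igfbp3 lie on the same chromosome, 44 and 54 measured genes away towards its other end. Genes with a small unadjusted p lay both near B4galnt2 and far from it, and none of them other than St6galnac2 passed the adjusted test. Positions here count measured genes and not distance along the chromosome. Whether the chromosome carries flanking sequence from the strain in which the allele was made was not tested.

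**Figure D4:**
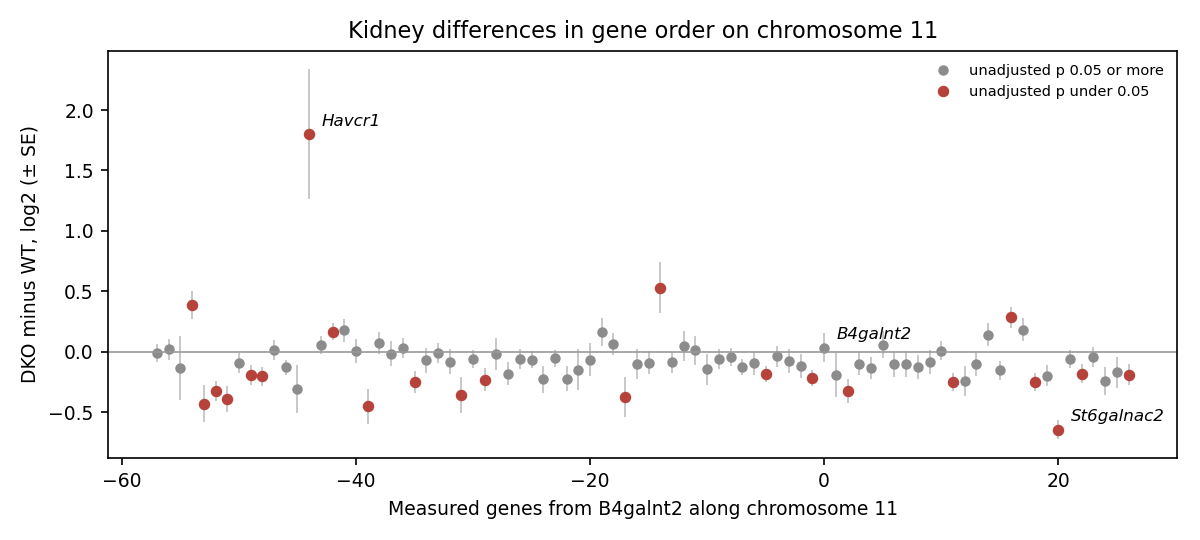
DKO minus WT difference in kidney (log2, points) with its standard error (bars) for the 84 measured genes of chromosome 11, in gene order from B4galnt2 at 0. Filled red points are the 23 genes with an unadjusted p under 0.05, with St6galnac2 20 measured genes to the right and Havcr1 44 to the left.

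Sex set apart far more genes in these kidneys than the double knockout did. Of 1246 probe sets, 91 were called between 3 female and 6 male kidneys with genotype in the model (percent called 7.30), 66 higher in females (5.30%) and 25 lower (2.01%). They held 79 named genes, 57 higher and 22 lower in females, and 16 of these differed more than 2-fold. The 3 females include 1 WT animal only, and the count was 45 without DKO female N5892, 57 without N5891 and 47 without WT female N9686.

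Genes higher in females were led by Igf2, a growth factor, at 8.87 to 10.24 in females against 6.42 to 6.63 in males (2.90 ± 0.19, SE, limma adjusted p = 5.54e-06). Lum, a keratan sulfate proteoglycan, rose by 1.35 ± 0.18 and Ugt1a6b, a glucuronosyltransferase, by 1.08 ± 0.12. Fst, which binds activins, rose by 1.05 ± 0.18, and Igfbp1, which binds insulin-like growth factors, by 1.07 ± 0.28. Tenm4, a teneurin, rose by 0.95 ± 0.09 and by 1.17 on its other probe set. B3galnt1, the globoside synthase, rose by 1.01 ± 0.19, with 7.88 to 7.92 in all 3 females against 6.21 to 7.29 in males. B4galnt1 itself was among the genes higher in females (0.44 ± 0.10, limma adjusted p = 0.0265), as were St3gal2 (0.51 ± 0.10) and B4galt6 (0.61 ± 0.14).

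Genes lower in females were led by Ugt8a, at 5.98 to 6.26 in females against 8.50 to 9.68 in males (-2.95 ± 0.16, SE, limma adjusted p = 1.97e-06). Chst7, a sulfotransferase of chondroitin sulfate, had 5.36 to 6.10 in females against 7.46 to 8.96 in males (-2.72 ± 0.27). Chst11, which adds 4-sulfate to chondroitin, had 6.56 to 6.65 against 7.43 to 9.32 (-2.04 ± 0.27). Galns, a lysosomal sulfatase of chondroitin and keratan sulfate, had 8.12 to 8.33 against 9.43 to 10.32 (-1.69 ± 0.13). Ranges of females and males did not overlap for any of these 4 genes. Ugt2b5, a glucuronosyltransferase, fell by 1.84 on one probe set and by 0.72 on the other. Timd2, a TIM family receptor, fell by 1.30, Angptl4 by 1.30, Angptl7 by 1.12, Csgalnact1 by 1.07 and B4galt5 by 0.83.

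Within the males, several of these male-high genes were lower in every DKO kidney than in every WT kidney. Ugt8a had 8.50, 9.12 and 8.90 in the DKO males, against 9.30, 9.68 and 9.55 in the WT males. Chst7 had 7.46, 8.26 and 8.37 in the DKO males, against 8.96, 8.94 and 8.67 in the WT males. Chst11 had 7.43, 8.61 and 8.84 in the DKO males, against 9.11, 9.32 and 9.10 in the WT males. DKO male N5893 was the lowest of the 6 males in each of these 3 genes, and WT male N9700 alone also lay above all 3 DKO males in each. Of the 22 genes lower in females, 13 (59.1%) had all 3 DKO males below all 3 WT males and 0 had them above, against 185 (20.4%) below and 18 (1.98%) above over all 909 genes. Of the 57 genes higher in females, 11 (19.3%) had them below and 1 (1.75%) above. In the females, Ugt8a had 5.98 and 6.26 in DKO against 6.21 in WT, and Chst7 had 5.50 and 6.10 in DKO against 5.36 in WT. Chst11 had 6.56 in both DKO females against 6.65 in the WT female, so both lay below it, as they did for Timd2 with 4.58 and 4.77 against 4.91. These counts describe genes picked by their sex difference in the same arrays and carry no test. The difference of the DKO effect between the sexes did not pass for Ugt8a, Chst7, Chst11, Galns or Angptl7 in limma.

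**Figure D5:**
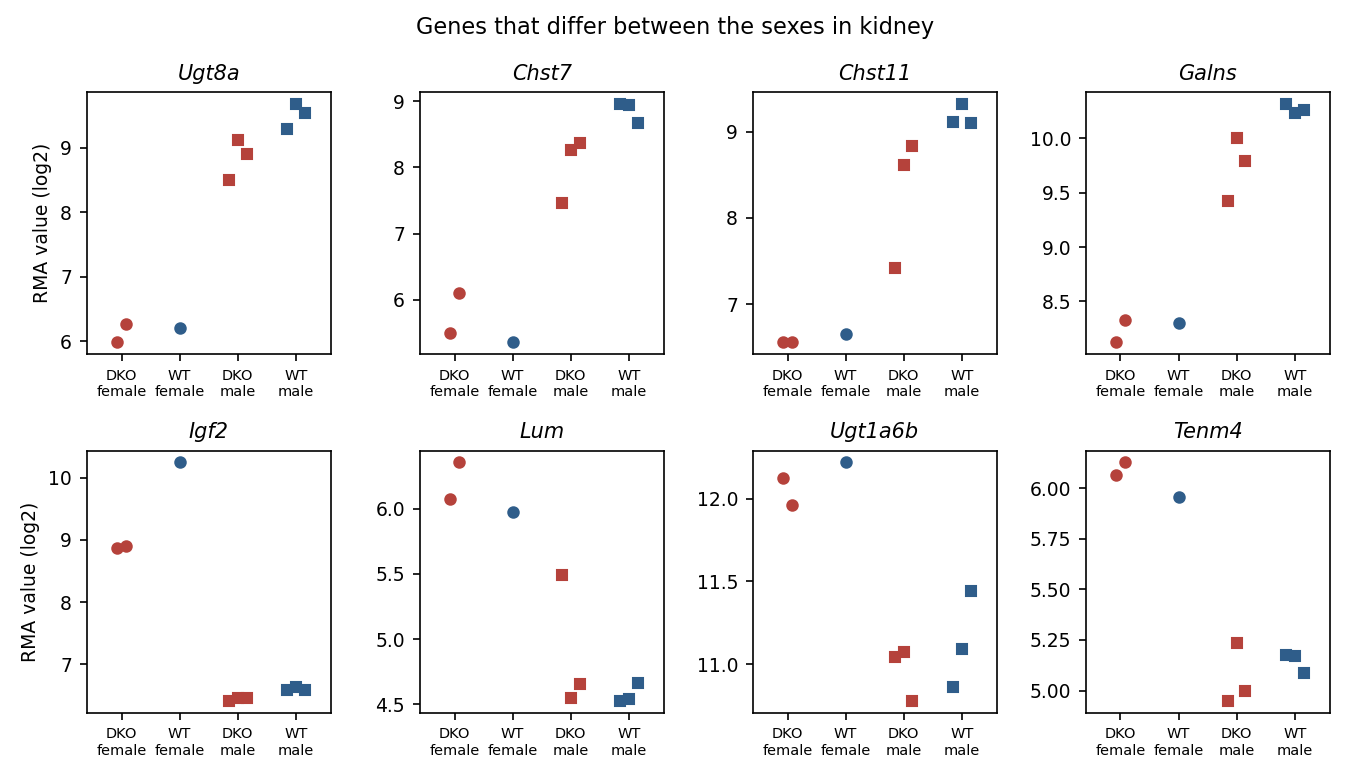
RMA value (log2) on each kidney array for 4 genes lower in females (top) and 4 genes higher in females (bottom), by sex and, within each sex, DKO left of WT. The 3 male DKO values lie below the 3 male WT values for Ugt8a, Chst7, Chst11 and Galns, and the lone WT female stands above both DKO females for Igf2; the axes differ between panels and do not start at 0.

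The DKO effect itself was tested for a difference between the sexes, with 1 of 1246 probe sets called (percent called 0.0803) and 70 at an unadjusted p under 0.05. The called gene was Igf2, which had 8.87 and 8.90 in the DKO females, against 10.24 in the WT female, and 6.42, 6.46 and 6.46 in the DKO males, against 6.60, 6.63 and 6.60 in the WT males. The effect in females minus that in males was -1.19 ± 0.14 (SE, limma adjusted p = 0.00796). The contrast rests on the single WT female, whose group has no spread of its own, so that the SE and p assume that it varies like the other groups.

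The kidney effect was also set against the mean of the effects in testes and mammary gland, in a fit of 30 arrays from 9 animals with the animal as a random block. Of 1246 probe sets, 0 were called by limma (percent called 0), 32 stood at an unadjusted p under 0.05, and the smallest adjusted p was 0.278. Havcr1 (1.90 ± 0.50), Ccl7, a chemokine with low kidney values (1.30 ± 0.35), and Il1rl2, an interleukin receptor (-0.49 ± 0.13), each had an adjusted p of 0.421. In kidney itself Ccl7 differed by only -0.09 ± 0.08 between DKO and WT, so its contrast comes from testes and mammary gland. For St6galnac2 the adjusted p was 0.998, so its difference is not shown to be particular to kidney.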

How the data were processed

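Total RNA was extracted with Trizol and biotin-labelled for Affymetrix arrays, per the labels' protocols. The authors deposited RMA values on the log2 scale, per the submitters' processing notes, with no version and no statement of which arrays were normalized together. They were used as deposited.

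Probe sets were named through their RefSeq accessions with the GRCm38.p6 gene table, and 283 of 1246 stayed unnamed but were tested. A gene with several probe sets (48 genes) was represented by the brightest over 60 arrays. A suffix for shared probes is carried by 217 named probe sets. Kidney arrays were fitted with limma 3.58.1 in R 4.3.3 with genotype and sex (moderated 2-sided test), with Benjamini-Hochberg adjustment over all probe sets and calls at an adjusted p under 0.05. Further fits added the interaction with sex, or took all DKO and WT arrays of the line with animal as random block (correlation 0.0722). Lists were described by counts and medians, with no set test. Nothing in the labels says how the animals were related, so p-values measure the spread between these animals.

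The text names the targeted genes, the called genes with further genes by smallest p up to 24, all measured members of the ganglioside and beta-GalNAc lists, the called or smallest-p member of each other list, the 8 largest called sex differences in each direction, and the called or smallest-p genes of the other comparisons. A gene that this rule names is not reported here and stays in the counts. Members and lists were chosen with earlier results of these data known. Alternatives were the sex term, males only, each animal left out, N3738 and N3740 left out (their thymus arrays stood apart in an earlier look at these data), the whole line, named probe sets only, a filter on low values, centring, quantile normalization, the prior and array weights. On data simulated for 1246 probe sets with 200 changed, the DKO comparison recovered 100% of 2-fold changes, with 4.76% of calls false. The interaction with sex recovered 86%, with 4.17% false. In the data only 1 probe set was called in each of these comparisons, so the threshold was stricter there and these shares do not carry over. Havcr1, at 1.80 ± 0.54 (SE) between DKO and WT, was not called.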

Additional observations from a re-analysis of the deposited data

Results flagged for a closer look

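Of 136 groups examined over 68 genes, 6 held an animal far from the rest of its group, and chance flags about 1 in 20. The WT female N9686, the only female of its group, accounted for 4 of them. It had 8.29 for Igf2r against 8.81 to 8.91 in the WT males, 8.83 for B4galt5 against 10.14 to 10.27, 6.21 for Ugt8a against 9.30 to 9.68, and 6.38 for Csgalnact2 against 6.11 to 6.14. All 4 genes were called between the sexes. DKO female N5891 had 9.50 for Fgf1, against 9.99 to 10.16 in the other DKO kidneys, and DKO male N5893 had 5.08 for St6galnac4, against 4.90 to 4.93. The DKO effect on Igf2 differed between females and males by -1.19 in the test of that difference, with 1 WT female behind it.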

How the results depend on the processing

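The 1 call between DKO and WT kidneys became 0 with males only, 0 without WT animals N3738 and N3740, and 0 in the fit of all groups of the line, and leaving out 1 animal gave 0 to 2. The count was 0 without WT N9686 and 2 without DKO N5893, where Msmo1 joined (-0.61, adjusted p = 0.0338), or without WT N9700, where Ppbp joined (-1.005, adjusted p = 0.0125). St6galnac2 was -0.6618 with males only, -0.5532 without N3738 and N3740 and -0.6466 in the fit of the line, not called in any of these, and ranged between -0.6960 and -0.5968 over the left-out animals. B4galnt2 ranged between -0.0561 and 0.1006, changing sign without DKO N5895 or WT N3738. The sex count ranged between 45 and 107. The count for the DKO effect by sex was 2 with a trend and robust prior, and that for kidney against mammary gland alone was 2. The medians of the 30 lists with at least 5 measured genes moved by less than the spread between animals in all 60 alternative values. Centring moved the median of all genes from -0.0779 to -0.0383 and turned 5 list medians from just below 0 to between 0.0135 and 0.0257, among them that of the beta-GalNAc transferases. Of 1246 values of 66 named genes, 60 from 15 genes changed sign, all of differences that had not passed.

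Without N3738 and N3740 these were B3galt4 0.0549, St6galnac4 0.1113, B4galt6 -0.0409, St3gal1 0.0471, St8sia3 0.0393, St3gal2 0.1201, Chpf 0.0575 and B4galnt4 -0.0045. Centred arrays gave St3gal1 0.0077, St8sia3 0.0205, St6galnac6 0.0200, St3gal2 0.0383, Chpf 0.0179 and Csgalnact2 0.0174. Quantile normalization gave St6galnac3 0.0018, St3gal1 0.0465, St8sia3 0.0365, St6galnac6 0.0138, St3gal2 0.0050 and Chpf 0.0355. Males only gave St6galnac6 0.1081, Chsy3 -0.0394 and Chga -0.1250. No sex term gave St3gal2 0.0751, Csgalnact2 0.0330 and B4galnt4 -0.0253, and array weights gave B4galnt4 -0.0040. Leaving out 1 animal gave ranges of -0.0574 to 0.0447 for B4galnt4, -0.4377 to 0.0112 for B4galt5, -0.0107 to 0.1441 for B4galt6, -0.1250 to 0.1699 for Chga, -0.0635 to 0.0030 for Chpf, -0.0394 to 0.0487 for Chsy3, -0.0782 to 0.0254 for Csgalnact2, -0.0879 to 0.0298 for St3gal1, -0.0863 to 0.0577 for St3gal2, -0.1900 to 0.0111 for St6galnac4, -0.1353 to 0.1081 for St6galnac6, -0.0785 to 0.0335 for St8sia3 and -0.0291 to 0.0754 for St8sia5. The cause was not tested. No paired analysis was possible because DKO and WT kidneys come from different animals. With 1 WT female, effects by sex have little precision, and 172 of 909 genes had mean kidney values below the 25th percentile.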
